A study of Homo sapiens with 6 samples.

Results

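The 100 genes with the most reads in control cells were followed through knockdown of ADAR1 and of ADAR1 with Staufen1 in A172 cells, an established human glioblastoma line. The libraries fell into 3 groups, with 2 libraries (a and b) in each. The first group was transfected with siRNAs against ADAR1 and Staufen1 (labelled siADAR1 and siStaufen1, called the combined knockdown here), the second with an siRNA against ADAR1 (siADAR1), and the third with a control siRNA (siControl). The treatment text shared by all libraries also names a plasmid for HA-tagged STAU1 given on the following day, so all 3 groups may carry it. siRNA doses, harvest times and a group with Staufen1 siRNA alone were not given in the sources used here.

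Each gene is a row of the deposited table that joins the UCSC hg19 transcripts of that gene. CPM is the number of reads of a row per 1000000 reads of its library. Members were the 100 rows with the highest mean CPM over both siControl libraries, of 20514 rows in all, after 3 rows had been left out by the rule. Without that rule the left-out rows would have ranked 1, 40 and 2874. All 100 members had enough reads to be tested, as had 14711 rows in all. The members were thus chosen by their siControl CPM, so every comparison with siControl below is a description, counts of calls included. P-values of single members are printed only between the combined knockdown and siADAR1, whose libraries played no part in the choice. Library totals ran from 20291057 to 29508632 reads. Whether libraries a and b stem from separate cultures is not stated, so a p-value here reflects the spread between these libraries alone, which may be technical.

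In a cultured cell a small number of mRNAs, typically those for the cytoskeleton, protein synthesis, energy metabolism and secreted matrix, make up a large part of all mRNA. Because a library holds a fixed number of reads, the share of these rows and the share of all other rows mirror each other. ADAR1 edits adenosine to inosine within RNA duplexes, and Staufen1 binds such duplexes in mRNAs and can direct the mRNA to decay. The files list transcript IDs without gene names, and the reference tables paired 0 of the 100 members with a symbol. Members are therefore called by their rank in siControl, with 4 IDs printed, and the markers of the cell line and the levels of the siRNA targets were not analysed here. CPM is not divided by transcript length, so a rank orders reads and not numbers of molecules.

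The 100 rows held fewer of the reads in both knockdown groups than in siControl, and the share was lowest with siADAR1 alone. They took 22.9% and 23.2% of the reads in the combined knockdown (libraries a and b), 20.9% and 20.8% in siADAR1, and 25.9% and 25.7% in siControl. The means were 23.1% ± 0.165, 20.9% ± 0.0143 and 25.8% ± 0.143 (SD, n = 2 each). The libraries of the 3 groups did not overlap. Against siControl the share was lower by 2.77 percentage points in the combined knockdown, which is a relative difference of -10.7%. With siADAR1 it was lower by 4.97 points, or -19.2%. The combined knockdown stood 2.20 points above siADAR1. With 2 libraries a group the smallest two-sided p of an exact permutation test is 0.333, so none is printed. In bulk RNA, fewer cells with a transcript and less of it per cell cannot be told apart.

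The lower share was found in every tier of the list. Ranks 1 to 10 held 6.24% ± 0.0794 in the combined knockdown, 5.51% ± 0.0167 in siADAR1 and 7.24% ± 0.182 in siControl (SD, n = 2 each). Ranks 11 to 50 held 9.93% ± 0.0507, 9.05% ± 0.01 and 10.98% ± 0.129 in the same order, and ranks 51 to 100 held 6.90% ± 0.0349, 6.30% ± 0.0124 and 7.62% ± 0.0908. With siADAR1 the relative difference from siControl was -23.8% for ranks 1 to 10, -17.6% for ranks 11 to 50 and -17.3% for ranks 51 to 100. The next rows of the same order also held less: the 100 rows that follow rank 100 had 8.37% in the combined knockdown, 7.99% in siADAR1 and 9.12% in siControl, and ranks 201 to 1000 had 25.73%, 24.96% and 26.34%. Below rank 1000 the order turned round. Ranks 1001 to 5000 held 29.5% in the combined knockdown, 31.5% in siADAR1 and 26.7% in siControl, and all rows below rank 5000 held 9.32%, 10.8% and 6.61%. The rows needed to hold 50% of a library's reads numbered 501 and 493 in the combined knockdown, 596 in both siADAR1 libraries, and 374 and 392 in siControl.

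**Figure D1:**
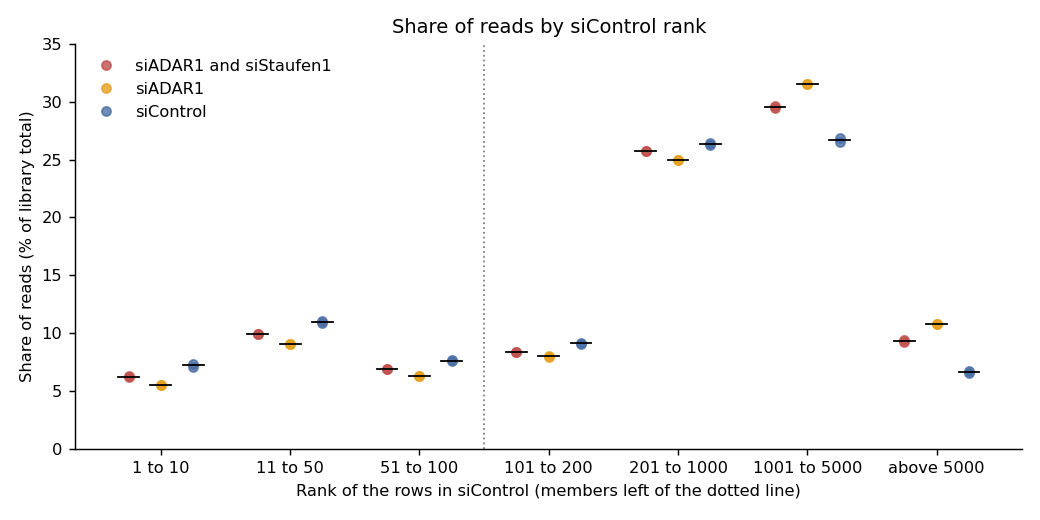
Share of reads (% of the library total) in tiers of rows ordered by their mean CPM in siControl, with 1 point per library, a bar at the mean of 2 libraries, and the combined knockdown, siADAR1 and siControl from left to right in each tier. The 3 tiers of members lie lowest in siADAR1 and highest in siControl, and the 2 tiers below rank 1000 show the opposite order.

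The values that set the choice are close together at the threshold. Ranks 96 to 100 had mean siControl levels of 1322, 1316, 1311, 1301 and 1278 CPM, and the next 5 rows had 1261, 1253, 1250, 1242 and 1241 CPM. Of the 100 rows with the most reads in siControl a alone, 98 were members, and they held 25.7% of the reads of siControl b, which had not chosen them. Of the 100 rows with the most reads in siControl b alone, 99 were members, and they held 25.9% of siControl a. The first of these sets held 22.9% and 23.1% of the reads in the combined knockdown and 20.8% and 20.8% in siADAR1, so the size of the difference was much the same when the siControl library that was compared had not chosen the rows.

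Most members took part in the loss, by unequal amounts. The mean CPM was lower than in siControl for 78 members in the combined knockdown and for 84 in siADAR1. The median ratio to siControl was 0.863 in the combined knockdown (quartiles 0.762 and 0.979) and 0.804 in siADAR1 (quartiles 0.695 and 0.922), beside medians of 1.16 and 1.27 over all tested rows other than those left out. The level was at most 0.5 times that of siControl for 1 member in the combined knockdown and for 6 in siADAR1. The members below siControl lost 4.20 points of share in the combined knockdown and 5.63 points in siADAR1, and the members above it gained 1.42 and 0.661 points. With siADAR1, the 15 largest losses made up 50% of the lost share and the 40 largest made up 80%. In the combined knockdown it took 14 and 37 members. The median change per member was -0.0257 points in the combined knockdown and -0.0365 points in siADAR1.

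Ranks 2 and 3 carried the largest losses of share in both knockdown groups. Together they made up 17.0% of the lost share in the combined knockdown and 15.3% in siADAR1. Rank 2 had 6364 and 6583 CPM in the combined knockdown, 5791 and 5684 CPM in siADAR1, and 10227 and 9885 CPM in siControl. Rank 3 had 5829 and 5961 CPM, 5174 and 5176 CPM, and 9726 and 9180 CPM in the same order. For both rows the 3 groups stood apart without overlap, with siADAR1 lowest, and the change in share was -0.358 and -0.356 points in the combined knockdown and -0.432 and -0.428 points in siADAR1.

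Ranks 9, 10 and 12 completed the 5 largest losses in both groups, and the 5 rows together held 28.8% of the lost share in the combined knockdown and 28.2% in siADAR1. Rank 9 had 2520 and 2485 CPM in the combined knockdown, 2480 and 2371 CPM in siADAR1, and 4351 and 4187 CPM in siControl. Its level was thus nearly as low in the combined knockdown as in siADAR1. Rank 10 had 2435 and 2550 CPM in the combined knockdown, 1909 and 1971 CPM in siADAR1, and 4198 and 3989 CPM in siControl.

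Rank 12, whose row holds the single transcript uc001kqy.3, was very low with siADAR1 and far less so in the combined knockdown. It had 2342 and 2388 CPM in the combined knockdown, 652 and 679 CPM in siADAR1, and 4054 and 3865 CPM in siControl. The siADAR1 libraries lay 5.95-fold below siControl, and the combined knockdown lay at 0.597 of the siControl level. Its change in share was -0.160 points in the combined knockdown and -0.329 points in siADAR1, the third largest loss there.

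**Figure D2:**
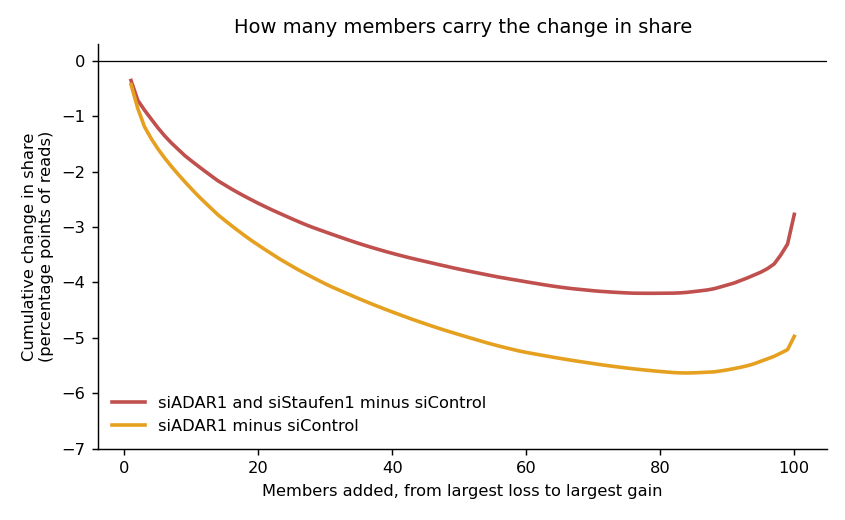
Cumulative change in the share of reads (percentage points, group mean minus the siControl mean) as members are added from the largest loss to the largest gain, for the combined knockdown and siADAR1. The curves reach -4.20 and -5.63 points after the members that lost share and end at -2.77 and -4.97 points once those that gained are added.

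Other members also lay far below siControl with siADAR1. Rank 99 had 161 and 154 CPM in the combined knockdown, 162 and 163 CPM in siADAR1, and 1318 and 1284 CPM in siControl. It was the lowest of all members relative to siControl in both groups, at 0.121 and 0.125 of the siControl level, and the levels of the combined knockdown and siADAR1 were close to each other. Rank 88 had 1018 and 1054 CPM in the combined knockdown, 463 and 480 CPM in siADAR1, and 1440 and 1336 CPM in siControl. Rank 75 (first transcript uc001tyj.3) had 1271 and 1301 CPM in the combined knockdown, 527 and 538 CPM in siADAR1, and 1539 and 1441 CPM in siControl. Rank 38 had 1834 and 1895 CPM, 977 and 1018 CPM, and 2280 and 2306 CPM in the same order. Ranks 38, 75 and 88 thus stood between siADAR1 and siControl in the combined knockdown, whereas rank 99 did not.

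A minority of members held more of the reads than in siControl, 22 in the combined knockdown and 16 in siADAR1. Rank 1 had 23140 and 22837 CPM in the combined knockdown, 17963 and 18237 CPM in siADAR1, and 17928 and 17368 CPM in siControl. It was the row with the most reads of those ranked in all 3 groups, and its gain of 0.534 points was the largest in the combined knockdown, 37.5% of all gains there. With rank 1 left out, the other 99 members held 20.8% ± 0.187, 19.1% ± 0.0337 and 24.1% ± 0.104 of the reads in the combined knockdown, siADAR1 and siControl (SD, n = 2 each). Rank 22 had the largest gain with siADAR1, 0.240 points or 36.4% of all gains there. It had 4886 and 4711 CPM in the combined knockdown, 5653 and 5484 CPM in siADAR1, and 3272 and 3057 CPM in siControl.

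Other rows gained in ways that differed between the groups. Rank 79 had 3435 and 3415 CPM in the combined knockdown, 1658 and 2160 CPM in siADAR1, and 1270 and 1649 CPM in siControl, so that its lower siADAR1 library barely exceeded its higher siControl library. Rank 36 (first transcript uc003mkt.1) had 1992 and 2130 CPM in the combined knockdown, 2890 and 3151 CPM in siADAR1, and 2369 and 2460 CPM in siControl. By CPM it was above siControl with siADAR1 and below it in the combined knockdown. With the TMM scaling described below, ranks 36 and 79 were nearly level with siControl in siADAR1, at log2 changes of 0.02 and 0.09. Rank 67 had 2348 and 2476 CPM, 2075 and 2229 CPM, and 1448 and 1667 CPM in the same order, above siControl in both groups.

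**Figure D3:**
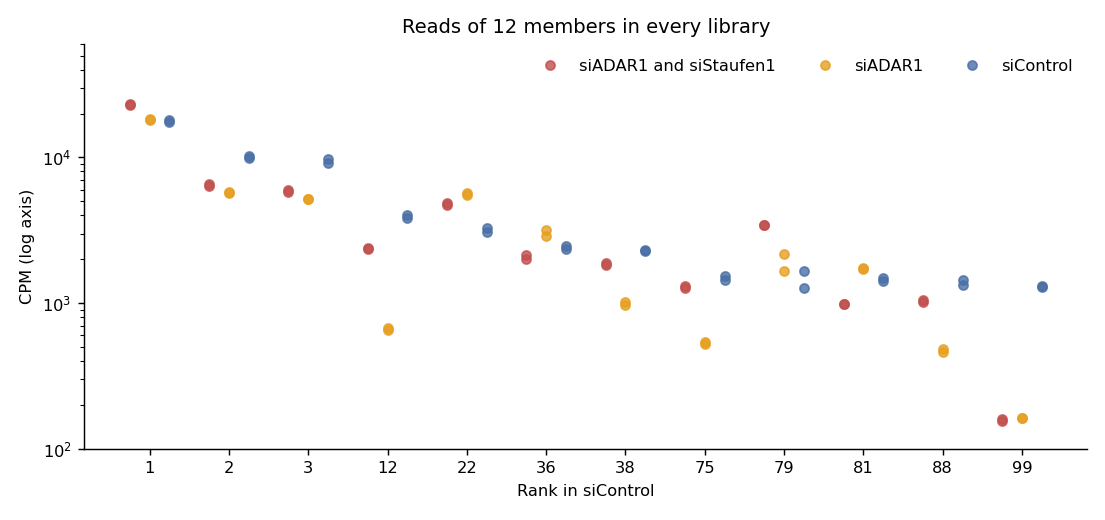
CPM on a log axis in every library for 12 members, called by their siControl rank, with the combined knockdown, siADAR1 and siControl from left to right and 1 point per library. Ranks 12, 38, 75 and 88 lie lowest in siADAR1, rank 99 lies equally low in both knockdown groups, and ranks 1 and 79 are highest in the combined knockdown.

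Most members stayed among the most abundant rows in both knockdown groups. Of the 100 members, 89 stayed among the first 100 rows by mean CPM in the combined knockdown and 87 in siADAR1. The 11 members that left the first 100 in the combined knockdown and the 13 that left in siADAR1 had 6 in common, which is 54.5% of those 11 and 46.2% of those 13. Rank 99 stood at 1175 in the combined knockdown and 1191 in siADAR1. Rank 12 stood at 33 in the combined knockdown and 198 in siADAR1, rank 75 at 81 and 267, and rank 88 at 115 and 308. Of the first 10 rows, 7 were among the first 10 in either knockdown group. Rank 10 stood at 29 in the combined knockdown and 37 in siADAR1. Upwards, rank 79 stood at 13 in the combined knockdown and 38 in siADAR1, and rank 22 at 5 and 4.

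The rows that entered the first 100 came mostly from just below the threshold. In the combined knockdown, 9 of 11 entrants had ranked within the first 200 in siControl, and in siADAR1 12 of 13, with 7 rows entering in both (63.6% of the 11 and 53.8% of the 13). The row ranked 212 in siControl entered in both groups, with 2320 and 2351 CPM in the combined knockdown, 1443 and 1423 CPM in siADAR1, and 656 and 648 CPM in siControl. From farthest away came the row ranked 970, which entered in the combined knockdown only. It had 1281 and 1223 CPM there, 732 and 850 CPM in siADAR1, and 172 and 199 CPM in siControl. The row ranked 109 stood at 52 in the combined knockdown and 39 in siADAR1, and the row ranked 114 at 74 and 54.

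**Figure D4:**
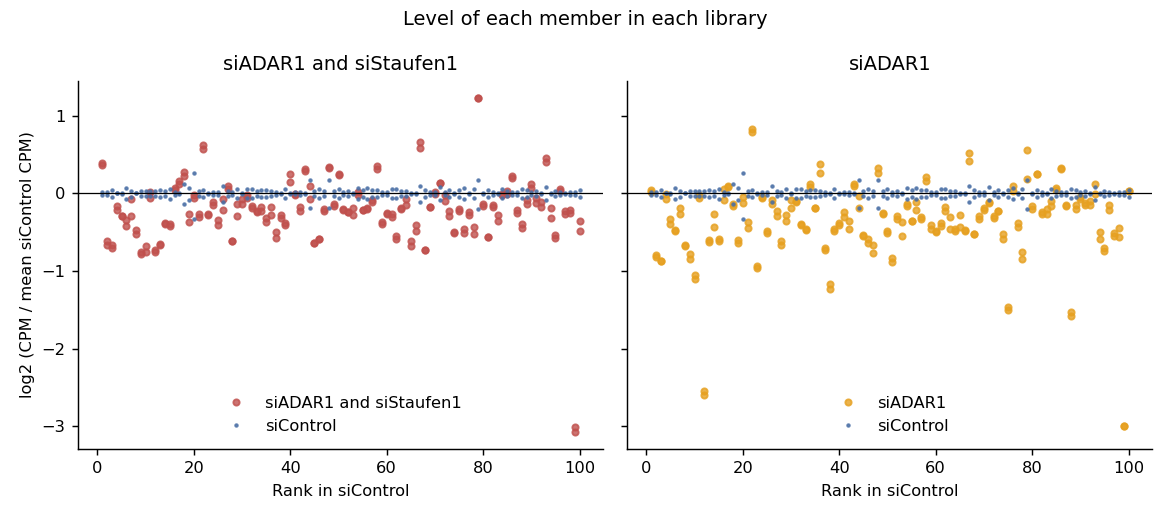
Log2 ratio of each member's CPM to its mean CPM in siControl, against its rank in siControl, with 1 point per library for the combined knockdown (left panel) and siADAR1 (right panel) and small points for the siControl libraries. Most members lie below 0 in both panels, lower in siADAR1, and the siControl points show the spread between replicates.

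The spread between replicates was small for nearly all members. The median coefficient of variation of CPM was 1.80% in the combined knockdown, 1.84% in siADAR1 and 3.15% in siControl. The siControl libraries differed by more than 1.2 times for 4 members, ranks 20, 44, 48 and 79, and all 4 were higher in library b. Rank 20 had 3134 and 3215 CPM in the combined knockdown, 2995 and 3143 CPM in siADAR1, and 2588 and 3919 CPM in siControl, so the siControl libraries lay on either side of the other groups. Ranks 20, 44 and 48 each hold a single transcript. Over all members, rows held a median of 3 transcripts, and 21.0% held a single transcript, beside a median of 3 and 23.6% over the rows tested.

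How many members count as lower depends on the scaling. CPM uses library totals, whereas the TMM scaling of edgeR sets the bulk of the rows level between libraries. Between TMM and library totals the median log2 change of all tested rows shifts by 0.18 (combined knockdown against siControl), 0.30 (siADAR1 against siControl) and -0.11 (combined knockdown against siADAR1). With TMM, the members' median log2 change against siControl was -0.40 in the combined knockdown and -0.61 in siADAR1, beside medians of 0.02 and 0.04 over all tested rows. With library totals the members' medians were -0.21 and -0.31, beside 0.21 and 0.34. The members lay below all tested rows by 0.42 and 0.65 with either scaling. A change of scaling moves all rows by nearly the same amount, so it could hardly alter these differences. Of the 22 members above siControl by CPM in the combined knockdown and the 16 in siADAR1, 12 and 5 were also above it with TMM. Rank 1 in siADAR1 was among those that were not, at -0.26 on the log2 scale with TMM and 0.04 with library totals.

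Calls against siControl were counted for reference. With TMM (edgeR, quasi-likelihood, adjusted p under 0.05), 81 members were lower and 7 higher in the combined knockdown, beside 25.8% and 28.7% of all tested rows. In siADAR1, 92 were lower and 2 higher, beside 29.7% and 32.9%. With library totals the counts were 66 lower and 13 higher in the combined knockdown, beside 16.0% and 39.0% of all tested rows. In siADAR1 they were 73 lower and 9 higher, beside 16.4% and 48.2%. By CPM alone, both libraries lay below both siControl libraries for 71 members in the combined knockdown and 79 in siADAR1, beside 24.7% and 23.2% of the tested rows. Both lay above for 18 and 13 members, beside 52.0% and 58.6%. Since high siControl values chose the members, nothing is read from these counts.

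The comparison that played no part in the choice asked what adding the Staufen1 siRNA to the ADAR1 siRNA changed. Of the 100 members, 71 rose and 7 fell in the combined knockdown against siADAR1 (edgeR, quasi-likelihood test, Benjamini-Hochberg adjusted over all tested rows), beside 21.7% and 21.5% of the tested rows. With library totals 47 rose and 12 fell, beside 15.0% and 30.0% of the tested rows. The members' median log2 change was 0.24 with TMM, beside 0.00 over all tested rows, and 0.12 with library totals, beside -0.11. By CPM, both libraries of the combined knockdown lay above both siADAR1 libraries for 65 members and below them for 19, beside 27.5% and 48.1% of the tested rows. The rises were small in most members. When a change beyond 1.5-fold was required (edgeR glmTreat), 8 rose and 0 fell, beside 3.05% and 3.88% of the tested rows.

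The balance of rises and falls shifted step by step with abundance and did not break at rank 100. Among the 100 rows that follow the members in siControl, 57 rose and 9 fell in the combined knockdown against siADAR1, with a median log2 change of 0.20. For ranks 201 to 1000 it was 50.6% and 14.9% (median 0.18), for ranks 1001 to 5000 31.8% and 24.0% (median 0.04), and below rank 5000 14.3% and 21.4% (median -0.06). At a given change, rows with fewer reads are called less readily. The percentages therefore also reflect the number of reads, whereas the medians do not rest on calls. Within the members, 8 of ranks 1 to 10, 27 of the 40 rows ranked 11 to 50 and 36 of the 50 rows ranked 51 to 100 rose.

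Rank 12 (uc001kqy.3) rose the most against siADAR1. Its log2 change was 1.94 (SE 0.054), and both combined libraries lay above both of siADAR1 (edgeR, adjusted p 9.85e-10). Rank 75 (uc001tyj.3) followed with a log2 change of 1.39 (SE 0.056) and an adjusted p of 1.08e-08 (edgeR), again without overlap. Ranks 88 and 38 rose by 1.25 and 1.02 on the log2 scale (adjusted p of 2.99e-08 and 4.24e-08, edgeR). These 4 rows had all been far below siControl with siADAR1. Rank 79, which had not, rose by 0.96 (SE 0.12, adjusted p 5.77e-05, edgeR).

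Falls against siADAR1 were fewer and smaller. Rank 81 (first transcript uc001fvk.3) had 983 and 982 CPM in the combined knockdown, 1730 and 1720 CPM in siADAR1, and 1489 and 1408 CPM in siControl. It fell by 0.70 on the log2 scale against siADAR1 (SE 0.052, edgeR adjusted p 1.08e-06), without overlap between the libraries. Rank 36 (uc003mkt.1) changed by -0.44 (SE 0.059, adjusted p 0.000101, edgeR). The other 5 rows that fell were ranks 34, 62, 65, 76 and 100, with log2 changes from -0.17 to -0.43. None of the 7 falls held when a change beyond 1.5-fold was required, where rank 81 had an adjusted p of 0.0879 by edgeR glmTreat.

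Among the first 10 rows, rank 1 rose by 0.46 (SE 0.045, adjusted p 8.72e-06, edgeR) and rank 10 by 0.48 (SE 0.054, adjusted p 2.73e-05, edgeR). Ranks 2 and 3, which carried the largest losses against siControl, rose by 0.29 and 0.30 (adjusted p of 0.000478 and 0.000456, edgeR). Rank 8 rose by 0.29, and ranks 5, 6 and 9 by 0.16 to 0.22. Rank 7 changed by 0.17 (SE 0.071, adjusted p 0.0788, edgeR) and was not called. It had 3882 and 4510 CPM in the combined knockdown, 3944 and 4158 CPM in siADAR1, and 4867 and 4612 CPM in siControl. The calls of ranks 5, 6 and 9 were lost under library totals, with adjusted p of 0.176, 0.116 and 0.437 by edgeR. Rank 5 also lost its call without siADAR1 b or combined b, rank 6 without either siADAR1 library or combined b, and rank 9 when any single library of these groups was left out. Rank 4 had 6386 and 6626 CPM in the combined knockdown, 7404 and 7032 CPM in siADAR1, and 7410 and 7407 CPM in siControl. Its log2 change against siADAR1 was -0.03 (adjusted p 0.600, edgeR) with TMM and -0.15 (adjusted p 0.0148, edgeR) with library totals. Rank 99, at -3.30 with siADAR1 and -3.23 with the combined knockdown against siControl on the log2 scale, had a change of 0.07 (SE 0.053, adjusted p 0.332, edgeR) between them.

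**Figure D5:**
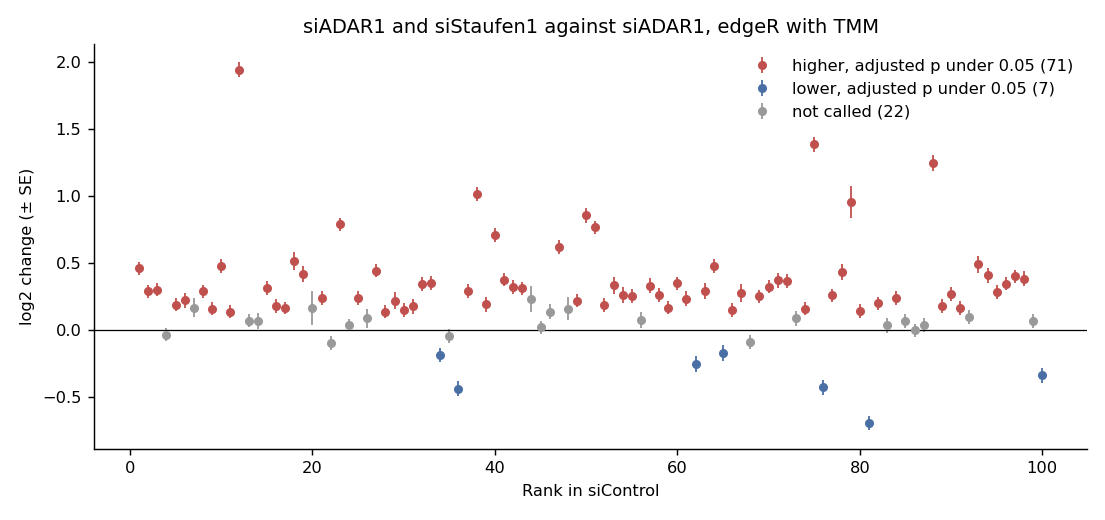
Log2 change of the 100 members in the combined knockdown against siADAR1 (edgeR with TMM, bars are ± SE), against their rank in siControl. Of the members, 71 are higher and 7 lower at an adjusted p under 0.05, with rank 12 at 1.94 and rank 81 at -0.70.

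The share gained in the combined knockdown over siADAR1 was spread over many rows. Against siADAR1, 76 members gained 2.83 points in all and 24 lost 0.631 points. The 10 largest gains made up 50% of the gained share and the 32 largest made up 80%. Rank 1 gained 0.489 points, 17.3% of the gained share, followed by ranks 12, 79, 18 and 23, with 0.170, 0.152, 0.0973 and 0.0969 points. Rank 18 had 3966 and 4102 CPM in the combined knockdown, 3038 and 3084 CPM in siADAR1, and 3091 and 3699 CPM in siControl. Rank 23 had 2609 and 2575 CPM, 1612 and 1634 CPM, and 3155 and 3112 CPM in the same order. Of the 84 members with a lower mean CPM in siADAR1 than in siControl, the combined knockdown lay between the 2 groups for 57, at or above siControl for 11 and below siADAR1 for 16. Both comparisons use the siADAR1 libraries, so these counts are a description.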

How the data were processed

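The deposited values are estimated counts (RSEM expected counts, whole numbers in the file) per row of UCSC hg19 transcripts, per the file headers. RSEM 1.2.3, edgeR and hg19 appear in the submitters' processing notes with no role. The aligner and the strand setting were not given in the sources used here, so reads of antisense partners and of near-identical genes are uncertain. Per the labels' protocols, a Lexogen SENSE mRNA kit was used. Members and comparisons were chosen with earlier results of these data known. A rule listed rows to describe: ranks 1 to 10, the 5 largest rises, falls, gains and losses of share per comparison, rows around the threshold and 5 entrants per group. Not all of them are described singly. Ranks 68, 86 and 93 and the entrants ranked 102, 133 and 136 in siControl met the rule but are left out of the single descriptions. Rows described outside the rule were picked after their values were seen.

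Rows passed filterByExpr (minimum count 10, minimum total 15). One mean per group was fitted to all 6 libraries (3 residual degrees of freedom) with TMM, and groups were compared by the two-sided quasi-likelihood F test of edgeR, Benjamini-Hochberg adjusted over 14711 rows at 0.05. The SE was taken from the F statistic. The procedure was tested on simulated data in which only a small part of the rows changed, in random directions. Far more rows were called in the real data, so that test does not cover the scaling used here. Versions were R 4.3.3, edgeR 4.0.16, DESeq2 1.42.0, Python 3.11.15 and matplotlib 3.10.9. Alternatives were other scalings, tests, filters and member lists, the replicate letter as a block, and each library left out. Gene lists and cell type markers could not be used, since the rows carry no gene names. Totals of 20291057 to 29508632 reads limit counting error only, which is a part of the spread between libraries.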

Additional observations from a re-analysis of the deposited data

How the results depend on the processing

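The members' medians and share differences kept their sign under every alternative tried. Unlabelled values follow the order siADAR1 against siControl, combined knockdown against siControl, combined knockdown against siADAR1. Library totals gave 9 (siADAR1) and 13 (combined knockdown) members higher than siControl, and 47 rises and 12 falls against siADAR1, with medians of -0.31, -0.21 and 0.12. DESeq2 size factors gave 1 rise and a median of -0.65 with siADAR1, and a median of -0.43 with the combined knockdown. DESeq2 and a fit of only the 4 libraries compared gave 1 rise with siADAR1. By construction glmTreat at 1.5-fold gave fewer calls: 0 rises and 43 falls (siADAR1), 1 and 17 (combined knockdown against siControl), and 8 and 0 (combined knockdown against siADAR1). A replicate block gave 2 rises and 92 falls (siADAR1), 7 and 82 (combined knockdown against siControl), and 72 and 7 (combined knockdown against siADAR1). Same-letter libraries deviated together by correlations of 0.051, 0.021 and 0.0060 over all tested rows, on which the block was kept out of the reported fit. Over the members all 3 correlations were above 0.1, at 0.41, 0.20 and 0.33.

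With 50 members the median with siADAR1 was -0.68, and the share differences were -3.65 points (siADAR1 against siControl), -2.05 (combined knockdown against siControl) and 1.60 (combined knockdown against siADAR1). With 200 members the medians against siControl were -0.56 and -0.37, and the differences -6.10, -3.52 and 2.58. Members chosen in siControl a or b alone gave medians of -0.38 and -0.45 for the combined knockdown. With the 3 rows kept the differences were -6.40, -4.04 and 2.37, with totals without them -5.61 and -3.29, and with each library's own 100 rows -4.36 and -2.27. Without rank 1, an alternative chosen after seeing the data, they were -3.31 (combined knockdown against siControl) and 1.71 (against siADAR1). Share differences over other rows or other totals are different sums, so they need not match the reported ones in size. Where the medians moved, the cause was not tested.

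Each library was also left out in turn, the lone library then being taken to vary as the other groups do. This gave 1 to 4 rises and 89 to 93 falls (siADAR1), 4 to 7 and 73 to 86 (combined knockdown against siControl), and 50 to 76 and 5 to 9 (combined knockdown against siADAR1). Without siControl b 4 rose with siADAR1, and without any other single library 1 did. The 4 rises of the combined knockdown came without its library b. Medians ran from -0.65 to -0.59, -0.45 to -0.39 and 0.21 to 0.26, and share differences from -5.07 to -4.87, -2.89 to -2.66 and 2.08 to 2.32 points. Rank 1 in siADAR1 against siControl turned from -0.26 with TMM to 0.036 with library totals.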
